A study of Mus musculus with 18 samples.

Results

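The genes described here are the autophagy and lysosome genes of cultured mouse sensory neurons, followed over 24 h after their axons were cut. They were chosen by name alone: protein-coding genes of GENCODE vM21 called Atg and a number, Lamp1 to Lamp5, Cts and a letter (the cathepsins), Atp6v or Atp6ap (the proton pump), Gabarap, Map1lc3, Sqstm1, Ulk1 to Ulk4, Becn1, Tfeb, Tfe3 and Mcoln1 to Mcoln3. This gave 83 of the 47643 genes in the tables, of which 62 passed a filter of over 1 CPM (a level per gene, scaled for library size) in at least 3 libraries and were tested, while 21 did not pass. Dorsal root ganglia (DRG) of CD-1 embryos at e13.5 were grown as spot cultures (eDRG), an in vitro model in which cell bodies sit in a central spot and axons grow outwards, and RNA was sequenced to follow the response to axon injury. The uninjured control cultures, collected at DIV7 (day 7 in vitro), were compared with cultures whose axons had been severed by blade and which were harvested after 1 h, 3 h, 8 h, 16 h or 24 h (hours post injury, HPI), with 3 libraries per group and 18 in all. All groups shared the same strain and embryonic stage, and according to the study's methods the cultures were kept with nerve growth factor and treated with FDU, an agent that removes dividing cells. The labels give DIV7 for every group, and the study cut the axons at DIV7. No uninjured group was matched to the later hours, so injury and time in culture cannot be told apart. Nothing in the labels states that the 3 replicates of a group came from separate litters or cultures, so p-values measure only the spread between these samples.

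Autophagy delivers parts of the cell to the lysosome for breakdown. Kinases of the Ulk family start the process, a lipid kinase complex around Becn1 and Atg14 marks the growing membrane, and conjugation enzymes attach the small Atg8 proteins (the LC3 and Gabarap families) to it, so that receptors such as Sqstm1 (p62) can tether cargo. The closed autophagosome then fuses with a lysosome, which the V-ATPase proton pump keeps acidic and in which cathepsins cut proteins. The transcription factors Tfeb and Tfe3 are known to switch on many of these genes by binding an E-box-like site, and in neurons autophagosomes formed in the axon are carried back towards the cell body.

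Each library held 9478891 to 23082327 counts on genes, and the 83 genes together took 0.807% to 0.941% of them. The replicate number was carried in the fit as a batch term, because libraries with the same number deviated together. Replicate 1 at 16 HPI stood apart, with 2.14% of its counts on residual ribosomal RNA genes against 0.664% to 1.26% in the other 17 libraries. All 10 sensory neuron markers, such as Tubb3 and Prph, were over 1 CPM in every control library, and their summed level ran from 10383 to 11000 normalized CPM there and from 9160 to 10092 at 16 HPI. The summed level of 14 myeloid markers was 5.39 to 8.15 normalized CPM in the controls, 7.14 to 8.40 at 16 HPI and 9.13 to 10.1 at 24 HPI. The corresponding sums for 7 fibroblast markers were 4.14 to 11.8, 5.62 to 16.2 and 5.01 to 17, and for 11 satellite glia and Schwann cell markers 164 to 249, 152 to 207 and 162 to 211. Single markers were called at 16 and 24 HPI, with log2 fold changes of 2.07 and 2.22 for Dcn (fibroblasts), -0.33 and -0.26 for S100b (glia), -0.40 and -0.37 for Tubb3 and -0.29 and -0.34 for Rbfox3 (neurons). Since the samples are bulk RNA, fewer cells of a type and less RNA per cell cannot be told apart, and the part of these markers in the results below was not tested.

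In the uninjured neurons the most abundant members per length came from both the lysosome and the autophagosome. On the RPKM scale (normalized CPM per kilobase of exon), Ctsd, an aspartic protease of the lysosome, stood at 253 ± 21.4 (SD, n = 3), and Atp6v1g1, a stalk subunit of the proton pump, at 187 ± 2.66. Sqstm1 (146 ± 4.84), Lamp1, a major glycoprotein of the lysosomal membrane (145 ± 6.73), and Map1lc3a, an LC3 protein (145 ± 14.7), followed within their spread of each other. The initiation and membrane genes were lower, with Ulk2 at 30.4 ± 1.15 and Ulk1 at 6.40 ± 0.893, both kinases that start autophagy, and Becn1 at 7.11 ± 0.135. Tfe3 stood at 10.9 ± 2.63 RPKM and Tfeb at 0.564 ± 0.0600.

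**Figure D1:**
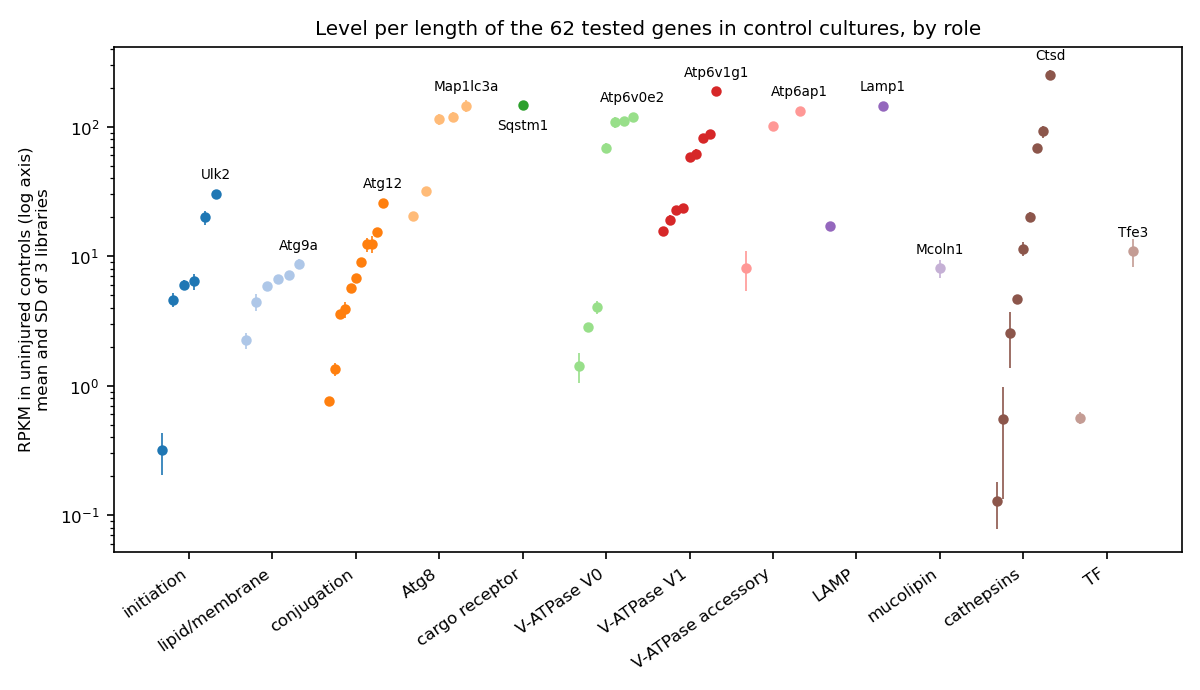
RPKM in the uninjured controls (log axis) of the 62 tested genes, grouped by role, each point the mean of 3 libraries with its SD and the highest gene of each role named. Ctsd is highest at 253 RPKM, while Tfeb lies at 0.564 and Tfe3 at 10.9.

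The subunits of the pump came from a narrow set of paralogues. Of the RPKM on the genes for the a subunit, Atp6v0a1 took 96.0% ± 0.403 (SD, n = 3) in the controls. Atp6v0a2 took 3.97% ± 0.403 and Atp6v0a4 0.0162% ± 0.00360. These shares are per length. Atp6v1b1, Atp6v0d2, Atp6v1c2, Atp6v1e2 and Atp6v1g3, which are known from kidney, osteoclasts or other specialised epithelia and tissues, had at most 6 counts in any library. The cathepsins Ctsj, Ctsm, Ctsq and Ctsr, known from placenta, were at 0 in every control library, where a count of 0 allows up to 0.147 to 0.218 CPM by counting error alone. Ctss, a cathepsin of myeloid cells, had at most 6 counts in any library.

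Calls among these genes appeared from 8 HPI on. At 1 HPI and at 3 HPI none of the 62 was called by edgeR's quasi-likelihood test at an adjusted p under 0.05, where 0.276% (0.0944% higher and 0.182% lower) and 0.189% (0.0436% and 0.145%) of all 13771 tested genes were called. At an unadjusted p under 0.05 there were 6 members at 1 HPI (9.68%, all tested genes 12.8%) and 14 at 3 HPI (22.6%, all tested genes 14.5%). DESeq2 called 2 of the 62 at each time, against 0.988% and 1.08% of all tested genes. At 8 HPI 8 members were called, 6 higher and 2 lower, against 7.68% of all tested genes (3.78% higher and 3.9% lower). At 16 HPI 7 were called, 6 higher and 1 lower (all tested genes: 22.2%, with 10.7% higher and 11.5% lower). At 24 HPI 9 were called, 6 higher and 3 lower (all tested genes: 15.0%, with 5.99% higher and 9.03% lower).

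As shares of the 62, these were 12.9%, 11.3% and 14.5%, so that the share at 16 HPI lay below that of all tested genes and the share at 24 HPI close to it. The share at 8 HPI lay above it, an order that turned in several of the alternatives given next. Beyond a 2-fold change a single member was called, Ctso at 24 HPI, where 0.821% of all tested genes were. None was at 1, 3, 8 or 16 HPI, where 0.029%, 0.029%, 0.537% and 1.49% of all tested genes were. The median log2 fold change of the 62 at 16 HPI was 0.018, against -0.0022 over all tested genes, and the median of its absolute value was 0.059 against 0.14. The 95% interval of the log2 fold change at 16 HPI lay between -0.5 and 0.5 for 55 of the 62 (88.7%), against 67.5% of all tested genes. The members were also measured more closely than most genes, with a median SE of 0.058 against 0.089 over all tested genes.

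The calls depended on the replicate number being in the fit. Without the replicate block the counts at 8, 16 and 24 HPI fell to 0, 1 and 1, with Sqstm1 the member called at 16 and at 24 HPI. Without replicate 1 of every group, an alternative chosen after seeing the data, they were 2, 2 and 4. At 8 HPI leaving out control replicate 1, 2 or 3 gave 2 calls of 62 each, against 5.03%, 4.51% and 3.44% of all tested genes. Leaving out replicate 1 of that time point gave 2 (all tested genes 3.88%), its replicate 3 gave 0 (3.25%), and the fit to the compared groups alone gave 0 (4.14%), so that in these the share of the 62 was the lower one. At 24 HPI leaving out control replicate 2 gave 2, against 8.98% of all tested genes.

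**Figure D2:**
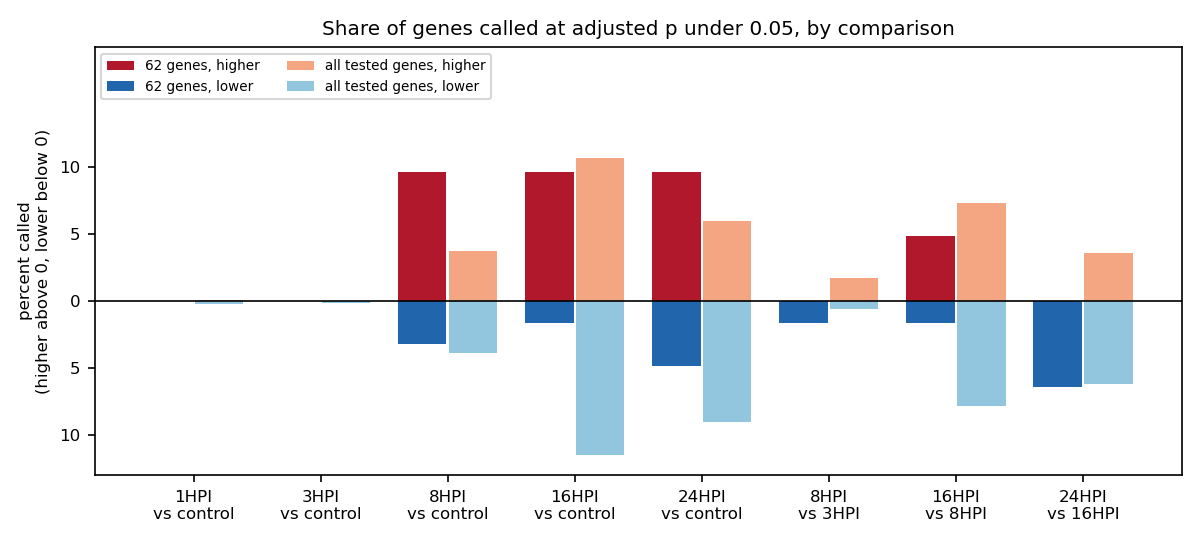
Percent of genes called at an adjusted p under 0.05 in each comparison, higher above 0 and lower below it, for the 62 genes (dark bars) and all 13771 tested genes (pale bars). At 16 HPI 11.3% of the 62 were called against 22.2% of all, and at 8 HPI 12.9% against 7.68%.

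**Figure D3:**
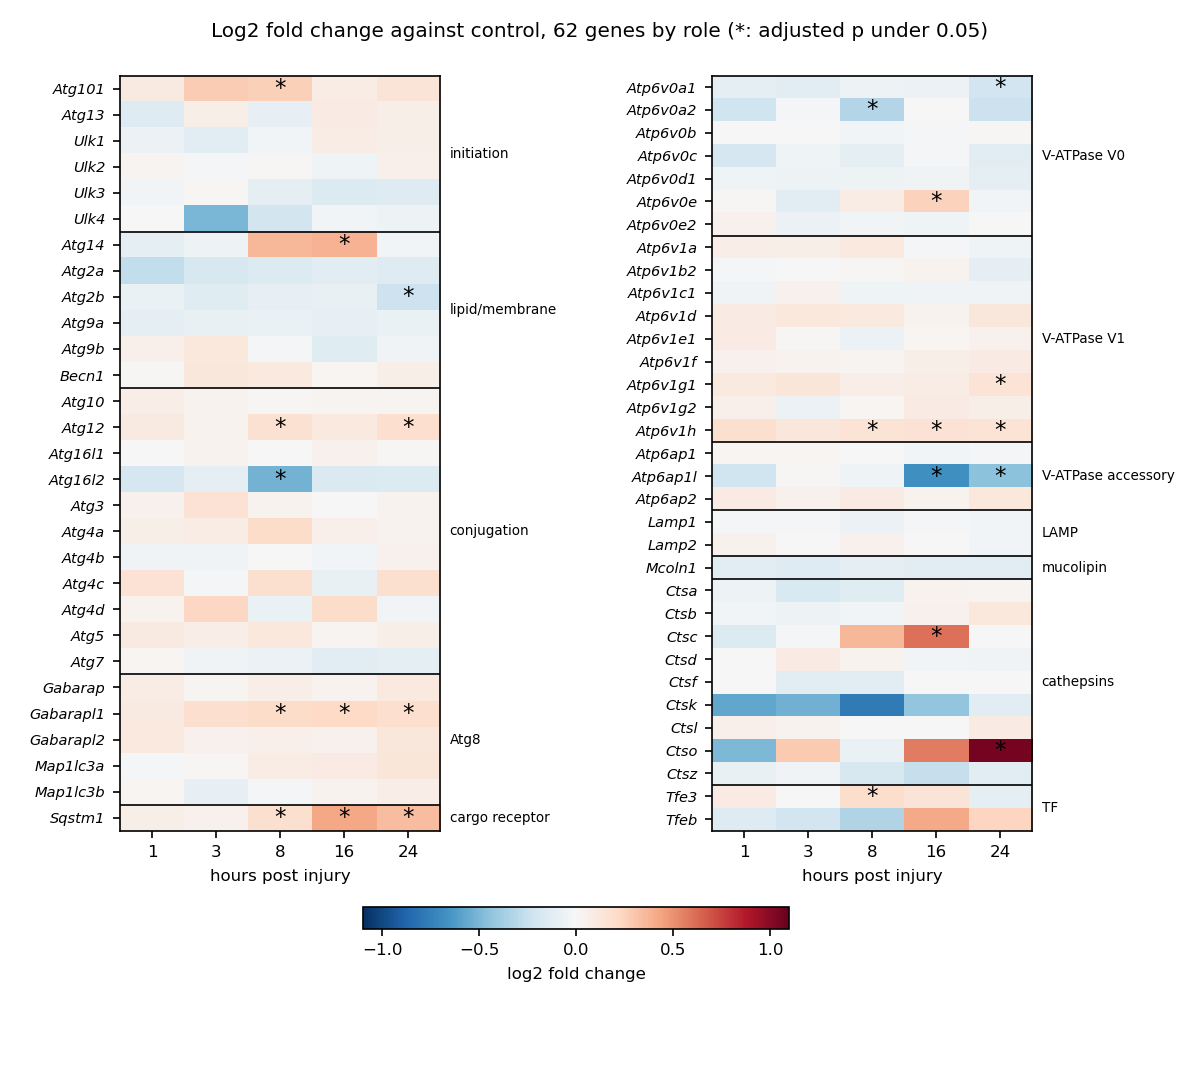
Log2 fold change against control (colour) of the 62 genes, by role, at 1, 3, 8, 16 and 24 HPI. Asterisks mark an adjusted p under 0.05: Sqstm1, Gabarapl1 and Atp6v1h carry one at 8, 16 and 24 HPI, and no gene carries one at 1 or 3 HPI.

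Sqstm1 was the member with the clearest rise. It encodes p62, a receptor that binds ubiquitinated cargo and LC3 and is itself degraded by autophagy, and it lies at chr11:50199366-50210827 on the minus strand (GRCm38). It measured 478, 508 and 482 normalized CPM in the control replicates 1, 2 and 3, then 539, 543 and 573 at 8 HPI. At 16 HPI it measured 689, 659 and 626, and at 24 HPI 606, 661 and 586. Every library at 8, 16 and 24 HPI lay above every control library, while at 1 HPI (500, 517 and 514) and 3 HPI (497, 508 and 514) the groups overlapped with control. At 16 HPI it was 1.34-fold higher, a log2 fold change of 0.43 (SE 0.053, edgeR adjusted p = 6.43e-06), and at 24 HPI 1.26-fold (0.34, SE 0.052, adjusted p = 0.000191). These calls held in all 13 alternatives, where the adjusted p ran from 1.49e-14 to 0.000991 at 16 HPI and from 5.34e-09 to 0.0112 at 24 HPI.

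The rise of Sqstm1 at 8 HPI was smaller, with a log2 fold change of 0.17 (SE 0.053, adjusted p = 0.0449), and held in 4 of 13 alternatives. It was lost without any 1 control library or without 8 HPI replicate 1 or 3 (log2 fold change 0.13 to 0.19, adjusted p 0.09 to 0.245), and the adjusted p over all alternatives ran from 0.0143 to 0.316. Of the 100-base stretches of its longest transcript, 18.8% overlapped the gene Mrnip on the opposite strand. Whether strand was used in the counting is not given in the sources used here, and without it reads from these stretches cannot be assigned to either gene.

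Among the 5 Atg8 genes, 1 was called, at 8, 16 and 24 HPI. Gabarapl1, an Atg8 protein of the Gabarap branch (chr6:129533160-129542346), measured 254, 217 and 216 normalized CPM in the controls and 287, 273 and 242 at 16 HPI. The groups overlapped, since replicate 1 was high throughout, but within each replicate number the 16 HPI library was the higher one. The log2 fold changes at 8, 16 and 24 HPI were 0.20, 0.22 and 0.19 (SE 0.047 each, edgeR adjusted p = 0.0113, 0.00149 and 0.0101). At 16 HPI the call was lost in 1 of 13 alternatives, the fit without the replicate block (adjusted p = 0.164, range 0.000183 to 0.164). At 8 HPI it was also lost without 8 HPI replicate 3 or control replicate 2 (0.16 to 0.19, adjusted p 0.0619 to 0.0861, range over all alternatives 0.00286 to 0.508), and at 24 HPI without 24 HPI replicate 3 or control replicate 2 (0.15 to 0.16, adjusted p 0.0556 to 0.075, range 0.00353 to 0.384).

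The other 4 Atg8 genes did not pass the test at any time point. Map1lc3b, the LC3 protein most used as a marker of autophagosomes, measured 225, 255 and 239 normalized CPM in the controls and 248, 249 and 241 at 16 HPI. Its log2 fold change there was 0.04, with a 95% interval of -0.06 to 0.14. Map1lc3a came closest, with 0.13 on the log2 scale at 24 HPI (edgeR adjusted p = 0.0508). For Gabarap and Gabarapl2 the values at 24 HPI were 0.10 (95% interval 0.00 to 0.21) and 0.12 (0.02 to 0.23). The summed level of the 5 genes was 861 to 934 normalized CPM in the controls and 911 to 1001 at 16 HPI.

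**Figure D4:**
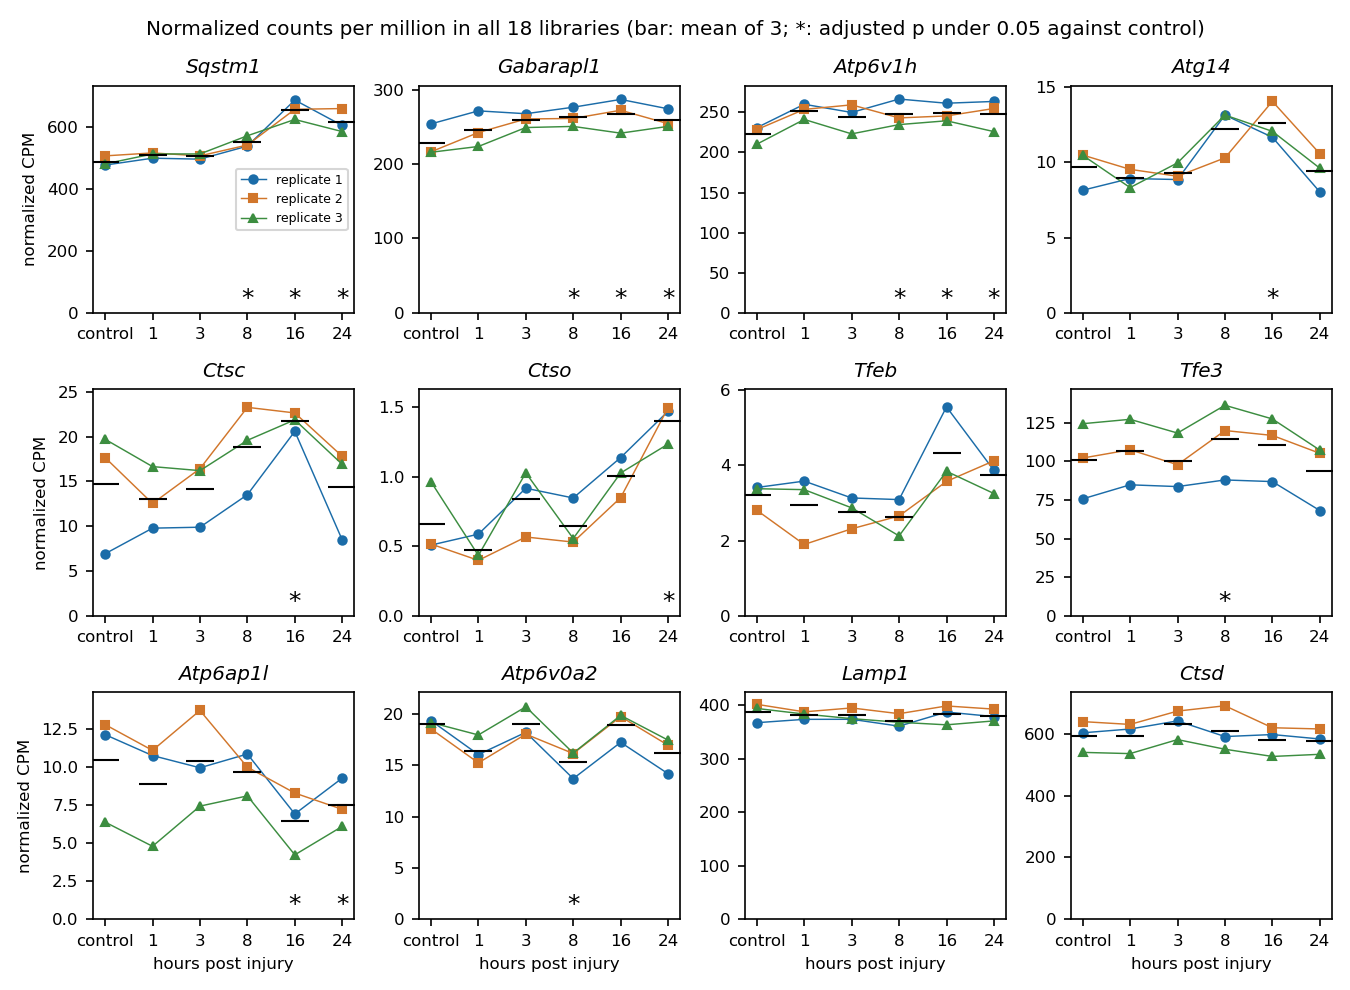
Normalized CPM of 12 genes in all 18 libraries (points, joined by replicate number), with the mean of 3 as a bar and an asterisk below each time point with an adjusted p under 0.05 against control. For Sqstm1 the libraries at 8, 16 and 24 HPI all lie above the controls (478 to 508), while those of Lamp1 and Ctsd overlap their controls at every time point.

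Of the 6 initiation genes, 1 was called at 8 HPI and none at 16 or 24 HPI. Atg101, which stabilises the Ulk1 complex, measured 36.3, 29.5 and 29.5 normalized CPM in the controls and 38.1, 38.3 and 37.7 at 8 HPI, so that the groups did not overlap. Its log2 fold change was 0.26 (SE 0.071, edgeR adjusted p = 0.0267), and the call was lost without 8 HPI replicate 2 or 3 or control replicate 2 or 3 (0.20 to 0.26, adjusted p 0.0759 to 0.202, range over all alternatives 0.0131 to 0.543). Ulk1 itself measured 35.5, 41.8 and 47.1 in the controls and 38.9, 41.6 and 51.4 at 16 HPI (log2 fold change 0.08, 95% interval -0.05 to 0.22).

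The 6 genes of the lipid kinase complex, lipid transfer and membrane supply gave 1 call at 16 HPI and 1 at 24 HPI. Atg14 directs the Becn1 complex to sites of autophagosome formation and lies at chr14:47540893-47570649. It measured 8.15, 10.5 and 10.5 normalized CPM in the controls, 13.1, 10.3 and 13.2 at 8 HPI, 11.7, 14.1 and 12.1 at 16 HPI, and 8.04, 10.6 and 9.62 at 24 HPI. All 3 libraries at 16 HPI lay above the controls, and those at 24 HPI lay within or just outside their range. The log2 fold change at 16 HPI was 0.38 (SE 0.11, edgeR adjusted p = 0.0192) and at 8 HPI 0.37, which missed the threshold (adjusted p = 0.0555). The call at 16 HPI was lost without 16 HPI replicate 2 or control replicate 1 (0.30 to 0.31, adjusted p 0.104 to 0.111, range over all alternatives 0.00647 to 0.119).

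Atg2b, a lipid transfer protein that feeds the growing membrane, fell at 24 HPI, from 74.5, 79.1 and 81.6 normalized CPM in the controls to 67.9, 63.1 and 70.1, with no overlap. Its log2 fold change was -0.23 (SE 0.051, edgeR adjusted p = 0.00475), lost among the single leave-outs without control replicate 2 (-0.17, adjusted p = 0.0562, range over all alternatives 0.00421 to 0.225). Becn1, the scaffold of the lipid kinase complex, measured 49.4, 51.3 and 50.01 in the controls and 48.6, 54.8 and 49.2 at 16 HPI (log2 fold change 0.02, 95% interval -0.11 to 0.14). Of the 100-base stretches of its transcript 41.1% overlapped Cntd1, so its counts are uncertain.

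Among the 11 conjugation genes, 1 rose and 1 fell at 8 HPI, none was called at 16 HPI and 1 rose at 24 HPI. Atg12 encodes the ubiquitin-like protein joined to Atg5. It measured 206, 201 and 189 normalized CPM in the controls, 243, 219 and 210 at 8 HPI, and 241, 223 and 215 at 24 HPI, above the controls at both times. The log2 fold change was 0.17 at 8 HPI (edgeR adjusted p = 0.0274) and 0.18 at 24 HPI (SE 0.046, adjusted p = 0.00962). The later call was lost only in the fit without the replicate block, of 13 alternatives (adjusted p = 0.266, range 0.00377 to 0.266). The earlier one was lost in 9, among them without any 1 control library or 8 HPI replicate 1 or 3 (0.14 to 0.18, adjusted p 0.0591 to 0.131, range over all alternatives 0.0163 to 0.498).

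Atg16l2, a relative of the scaffold protein Atg16l1, measured 6.16, 6.35 and 6.81 normalized CPM in the controls and 4.12, 4.35 and 4.96 at 8 HPI, with no overlap. It fell by 0.52 on the log2 scale (SE 0.13, edgeR adjusted p = 0.0156). The call was lost in 5 of 6 single leave-outs, all but control replicate 2 (-0.55 to -0.45, adjusted p 0.05 to 0.0704, range over all alternatives 0.0136 to 0.226). At 16 and 24 HPI the 3 libraries overlapped the controls again.

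In the proton pump the subunit genes moved little and not together. Over the 16 tested V0 and V1 genes, 1 rose and 1 fell at 8 HPI, 2 rose at 16 HPI, and 2 rose and 1 fell at 24 HPI, with median log2 fold changes of -0.011, 0.0059 and -0.014. Their summed level was 2955 to 3127 normalized CPM in the controls and 2944 to 3136 at 16 HPI. Atp6v1h, the V1 subunit H that couples both sectors of the pump, measured 231, 229 and 210 in the controls and 262, 246 and 240 at 16 HPI, without overlap. Its log2 fold changes at 8, 16 and 24 HPI were 0.15, 0.16 and 0.15 (SE 0.045 each, edgeR adjusted p = 0.0412, 0.0148 and 0.0264).

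These were marginal calls. At 16 HPI the call of Atp6v1h was lost without 16 HPI replicate 1 or 3 (0.14 to 0.16, adjusted p 0.0599 to 0.0753, range over all alternatives 0.0105 to 0.288). At 8 HPI it was lost without any 1 control library or 8 HPI replicate 1 or 3 (adjusted p 0.0935 to 0.16, range 0.0273 to 0.602), and at 24 HPI without any 1 control library or 24 HPI replicate 1 or 2 (0.057 to 0.102, range 0.0178 to 0.421). Atp6v1g1 rose at 24 HPI by 0.15 on the log2 scale (adjusted p = 0.0496), from 215, 213 and 209 to 231, 241 and 236 normalized CPM, and the call was lost in 5 of 6 single leave-outs, all but control replicate 1 (0.0701 to 0.205, range 0.0349 to 0.343).

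Among the V0 genes the 3 calls differed in direction and time. Atp6v0a2, the minor a subunit, measured 19.4, 18.5 and 19.2 normalized CPM in the controls, 13.7, 16.1 and 16.2 at 8 HPI, and 17.2, 19.7 and 19.9 at 16 HPI. All 3 libraries at 8 HPI lay below the controls, a log2 fold change of -0.32 (SE 0.083, edgeR adjusted p = 0.0197), lost without 8 HPI replicate 1 or 3 or control replicate 1 (-0.32 to -0.25, adjusted p 0.0873 to 0.114, range over all alternatives 0.0173 to 0.303). Of its transcript's 100-base stretches 9.0% overlapped the opposite-strand gene 4930404A12Rik. Atp6v0e is the minor gene for the e subunit, with 3.29% of the RPKM on its pair in the controls. It rose at 16 HPI from 13.8, 14.2 and 16.9 to 16.4, 18.3 and 19.1 normalized CPM (0.26, SE 0.072, edgeR adjusted p = 0.0125), with overlapping groups. Atp6v0e2, the main gene for that subunit, was not called at any time and measured 279, 291 and 277 in the controls and 290, 262 and 266 at 16 HPI. The call of Atp6v0e was lost in 6 of 13 alternatives, DESeq2 and the leaving out of 16 HPI replicate 2 or control replicate 2 among them (without a library 0.23 each, adjusted p 0.0592 to 0.0595, range over all alternatives 0.0115 to 0.271).

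Atp6v0a1, the main a subunit, fell at 24 HPI from 406, 469 and 478 to 385, 410 and 371 normalized CPM (-0.21, SE 0.055, edgeR adjusted p = 0.0123). The groups overlapped, and the call was lost without 24 HPI replicate 3 or control replicate 2 or 3 (-0.20 to -0.16, adjusted p 0.0622 to 0.103, range over all alternatives 0.00237 to 0.188). Atp6v0d1, the d subunit, and Atp6ap1, the accessory protein needed for pump assembly, did not pass the test at any time point, with log2 fold changes at 16 HPI of -0.04 (95% interval -0.14 to 0.07) and -0.03 (-0.13 to 0.06).

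Atp6ap1l, a gene named for its likeness to Atp6ap1, went down late. It lies at chr13:90883433-90905355 and measured 12.1, 12.8 and 6.37 normalized CPM in the controls, 6.91, 8.28 and 4.22 at 16 HPI, and 9.26, 7.21 and 6.09 at 24 HPI. Replicate 3 was low throughout, so the groups overlapped, but each 16 HPI library was below the control of its number. The log2 fold change was -0.67 at 16 HPI (SE 0.16, edgeR adjusted p = 0.00351) and -0.45 at 24 HPI (SE 0.15, adjusted p = 0.048). The first was kept in 11 of 13 alternatives and in each single leave-out. The second was lost without 24 HPI replicate 1 or 2 or control replicate 1 or 2 (-0.53 to -0.25, adjusted p 0.0605 to 0.317, range over all alternatives 0.00541 to 0.64).

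The lysosomal membrane proteins were measured within narrow limits. Lamp1 measured 367, 401 and 394 normalized CPM in the controls and 387, 398 and 363 at 16 HPI, a log2 fold change of -0.02 (95% interval -0.11 to 0.08). Lamp2, needed for fusion and for chaperone-mediated autophagy, measured 169, 162 and 155 in the controls and 173, 162 and 151 at 16 HPI (-0.00, 95% interval -0.10 to 0.09). Mcoln1, the calcium channel of the lysosome, measured 52.8, 58.2 and 71.5 in the controls and 46.6, 58.4 and 64.2 at 16 HPI (-0.11, 95% interval -0.23 to 0.00). None of these 3 genes passed the test at any time point.

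Of the 9 tested cathepsins, the abundant ones did not pass the test and 2 scarce ones did. Ctsd measured 603, 639 and 540 normalized CPM in the controls and 597, 619 and 526 at 16 HPI (log2 fold change -0.03, 95% interval -0.13 to 0.07). Ctsb and Ctsl, both cysteine proteases, had log2 fold changes at 16 HPI of 0.04 (-0.08 to 0.16) and 0.01 (-0.10 to 0.12). Ctsd and Ctsl shared 35.01% and 25.4% of their 100-base stretches with overlapping genes, some on the same strand, so part of their reads could not be assigned. Ctsb shared 14.5% with Fdft1 on the opposite strand, where assignment depends on whether strand was used in the counting.

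Ctsc, which activates granule proteases in immune cells and is found in lysosomes of many cells, lies at chr7:88278085-88310888. It measured 6.93, 17.7 and 19.7 normalized CPM in the controls, 13.51, 23.3 and 19.6 at 8 HPI, 20.6, 22.6 and 21.9 at 16 HPI, and 8.47, 17.8 and 16.9 at 24 HPI. All 3 libraries at 16 HPI lay above the controls, and control replicate 1 was far below the other 2. The log2 fold change at 16 HPI was 0.61 (SE 0.16, edgeR adjusted p = 0.00996), but it came to 0.39 without 16 HPI replicate 1 and to 0.39 without control replicate 1, where the call was lost (adjusted p 0.071 to 0.0715, range over all alternatives 7.55e-09 to 0.44). Of the 14 myeloid markers 3 were tested, and 1 was called at 16 HPI, Cd68 (log2 fold change 0.97, adjusted p = 0.00698), which is itself a protein of the lysosomal membrane, while Aif1 had 0.25 (adjusted p = 0.43) and C1qb -0.24 (adjusted p = 0.541). The other 11 had at most 28 counts in any library. Among them Csf1r had up to 15, Ptprc and Adgre1 up to 8 each, and Itgam and Cd14 up to 1.

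Ctso, a cysteine protease of the papain family, was the single member called at over 2-fold, and it was scarce, with 5 to 32 counts per library. It measured 0.509, 0.517 and 0.966 normalized CPM in the controls and 1.47, 1.498 and 1.24 at 24 HPI, all above the controls. The log2 fold change was 1.06 (95% interval 0.48 to 1.63, edgeR adjusted p = 0.013). It was lost without 24 HPI replicate 2 or control replicate 1 or 2 (0.78 to 1.00, adjusted p 0.0508 to 0.105, range over all alternatives 0.00525 to 0.124), and it did not enter the fit restricted to genes over 1 CPM in all 18 libraries.

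Of the transcription factors that act on this gene set, Tfe3 was called against control and Tfeb between time points. Tfeb, a master regulator of lysosomal genes (chr17:47737030-47792419), was low in these neurons, at 25 to 88 counts per library. It measured 3.41, 2.81 and 3.38 normalized CPM in the controls, 3.09, 2.65 and 2.12 at 8 HPI, and 5.55, 3.57 and 3.84 at 16 HPI. The 3 libraries at 16 HPI lay above all controls, but against control the log2 fold change of 0.41 did not pass the test (95% interval 0.04 to 0.79, edgeR adjusted p = 0.105). Between 8 and 16 HPI it rose by 0.74 (SE 0.19, adjusted p = 0.0116), and this step was lost without 16 HPI replicate 1 or 8 HPI replicate 3 (0.60 to 0.63, adjusted p 0.0715 to 0.0964, range over all alternatives 0.000965 to 0.17).

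Tfe3, the related factor that was far more abundant here per length, measured 75.7, 102 and 124 normalized CPM in the controls, 87.9, 120 and 136 at 8 HPI, 86.9, 117 and 127 at 16 HPI, and 68.2, 105 and 107 at 24 HPI. Replicate numbers spread more than time points did, so the groups overlapped throughout. The log2 fold change at 8 HPI was 0.19 (SE 0.057, edgeR adjusted p = 0.0442), lost in all 6 single leave-outs (0.16 to 0.24, adjusted p 0.0501 to 0.153, range over all alternatives 0.0294 to 0.935).

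Because Tfeb and Tfe3 bind the palindrome TCACGTGA, the promoters of the 67 members with an entry in the RefSeq table (GRCm38.p6, 250 bases before to 50 after the start) were searched for it. It was found in 7 of them (10.4%), against 1.12% of all 27025 genes in the table. The shorter core CACGTG, which lies within it, was found in 15 (22.4%, all genes 8.09%). The sites, each with 11 bases on either side, read 5′ to 3′ along the gene with TCACGTGA in capitals, as the sequences through which these factors are known to act.
Ctsd, chr7:142387908-142387937, minus strand: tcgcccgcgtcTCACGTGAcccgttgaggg
Mcoln1, chr8:3500462-3500491, plus strand: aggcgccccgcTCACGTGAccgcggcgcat
Ctsa, chr2:164833749-164833778, plus strand: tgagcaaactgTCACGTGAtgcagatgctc
Ctsa, chr2:164833766-164833795, plus strand: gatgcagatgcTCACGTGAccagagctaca
Atp6v1a, chr16:44139373-44139402, minus strand: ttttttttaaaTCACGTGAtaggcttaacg
Atp6v0d1, chr8:105566050-105566079, minus strand: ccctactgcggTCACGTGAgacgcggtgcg
Atp6v0e, chr17:26676387-26676416, plus strand: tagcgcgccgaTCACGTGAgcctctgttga
Atg3, chr16:45158746-45158775, plus strand: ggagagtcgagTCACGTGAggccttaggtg

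The site began 99 bases before the start in Ctsd, 72 in Atg3, 46 in Mcoln1, 132 in Atp6v1a and 4 in Atp6v0d1, and 2 bases after it in Atp6v0e. Ctsa, which encodes the protective protein of the lysosome, held 2 copies, 1 beginning 13 bases before the start and 1 beginning 4 bases after it. Of the 7 genes, 1 was called against control at any time, Atp6v0e at 16 HPI. Other motifs were searched on both strands. The AP-1 site TGANTCA was in 2 of the 67 promoters (Atp6v0a1 and Tfe3; all genes 8.97%), the CRE site TGACGTCA in 2 (all genes 2.03%) and the antioxidant response core TGACNNNGC in 11 (all genes 14%). A match describes the letters of the window and not binding, and the Sqstm1 window held none of the 5 motifs.

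Steps between neighbouring time points were tested in the same fit. Between 3 and 8 HPI 1 member was called, a fall of Atp6v0a2 by 0.31 on the log2 scale (all tested genes 2.3%, with 1.74% higher and 0.559% lower), which was lost in all 6 single leave-outs and in the fit to the compared groups alone (without a library -0.35 to -0.27, edgeR adjusted p 0.0527 to 0.231, range over all alternatives 0.0416 to 0.51). Between 8 and 16 HPI 3 rose and 1 fell (all tested genes 15.2%, with 7.3% higher and 7.86% lower). Sqstm1 rose by 0.25 on the log2 scale (SE 0.053, adjusted p = 0.00246), a step kept in all 13 alternatives (adjusted p 4.89e-05 to 0.0425) and lost without replicate 1 in every group. Between 16 and 24 HPI 4 fell and none rose (all tested genes 9.82%, with 3.59% higher and 6.22% lower). Ctsc fell by 0.61, Atg14 by 0.42, Atp6v0e by 0.28 and Tfe3 by 0.24.

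Over the whole course 14 of the 62 (22.6%) differed among the 6 groups in the F test over all time points, against 30% of all tested genes. Without the replicate block 1 did, Sqstm1, against 3.885% of all tested genes. In pairwise comparisons with control, 16 members were called at some time and 46 at none. The 24 calls of these 16 were 18 higher and 6 lower. These pooled counts were not made over all tested genes, so they do not show whether the members differ from other genes. For each of the 24 calls the 3 replicate numbers moved the same way. The fit is paired by replicate number and so favours such calls, and the agreement is no separate support. Without the replicate block 2 of the 24 held.

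Genes of the same pathways that the names did not take in were counted in 6 lists of 124 genes, 121 of them tested. At 16 HPI 24 were higher and 11 lower (28.9%, all tested genes 22.2%), at 8 HPI 8 and 4, and at 24 HPI 7 and 16. Without the replicate block the counts at 16, 8 and 24 HPI were 10, 1 and 5, and without replicate 1 in every group 20, 5 and 10. Single leave-outs gave 24 to 35, 5 to 12 and 11 to 20, the lowest without 16 HPI replicate 1, 8 HPI replicate 3 and control replicate 2. Among 17 further genes of the autophagy machinery 8 were higher at 16 HPI and none lower (47.1%, all tested genes 22.2%). The median log2 fold change over the list was 0.13. Trp53inp1, which binds Atg8 proteins and is a target of p53, was 2.26-fold higher (log2 fold change 1.18, SE 0.11, edgeR adjusted p = 3.28e-07) and was higher in all 3 replicate numbers. Nrbf2, a subunit of the lipid kinase complex, was higher by 0.37 (adjusted p = 0.00469), and Wdr45, a lipid-binding protein of early autophagy, by 0.53 (adjusted p = 0.0413, lost in 5 of 6 single leave-outs, all but control replicate 3, at 0.42 to 0.55).

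The 18 further genes of the lysosomal membrane and of sorting gave 6 higher and 2 lower calls at 16 HPI (44.4%, all tested genes 22.2%). They included Nagpa, an enzyme of the mannose 6-phosphate tag that sends hydrolases to lysosomes (log2 fold change 0.60, edgeR adjusted p = 0.00419), and Ctns, the cystine carrier (0.49, adjusted p = 0.000574). The 34 hydrolases and cofactors had 2 higher and 3 lower at 16 HPI (14.7%, all tested genes 22.2%). At 24 HPI they had 6 lower (17.6%, all tested genes 15.0%). Gla, which cleaves galactose from lipids, was higher (0.50, adjusted p = 4.73e-05) and Lipa, the acid lipase, lower (-0.46, adjusted p = 0.000474). Hyal2, a hyaluronidase, was lower at 8 HPI (-0.76, adjusted p = 0.000588) and not called at 16 HPI.

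**Figure D5:**
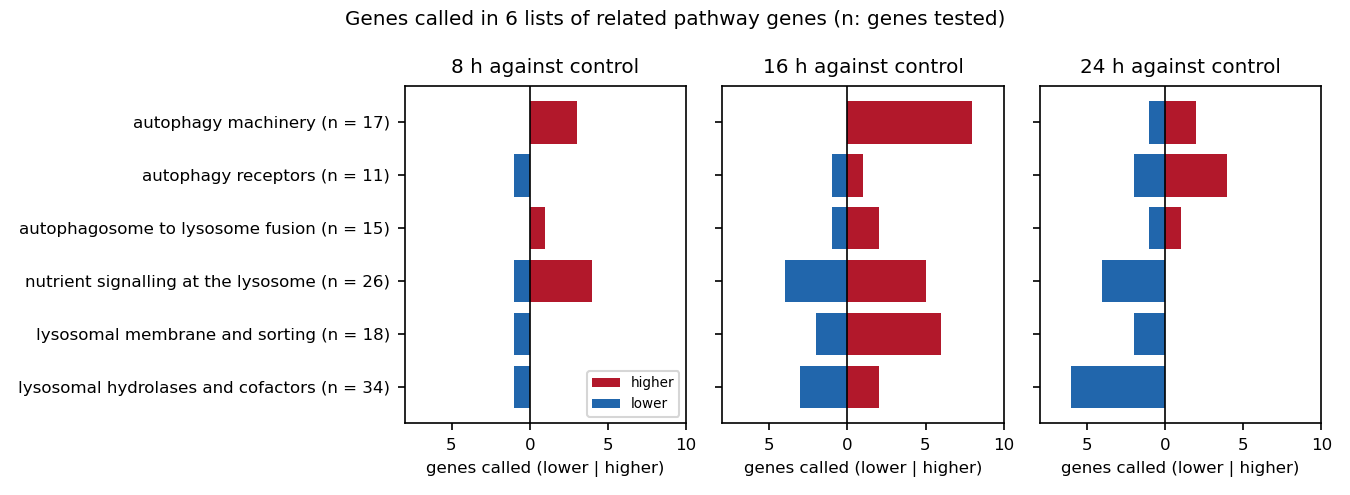
Number of genes called higher (right of 0) and lower (left of 0) against control at 8, 16 and 24 HPI in 6 lists of related pathway genes, with the number tested behind each name. The autophagy machinery list has 8 higher and none lower at 16 HPI, and the hydrolases have 6 lower and none higher at 24 HPI. Of all tested genes 22.2% were called at 16 HPI and 15.0% at 24 HPI.

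Of 26 tested genes of nutrient signalling at the lysosome, 5 were higher and 4 lower at 16 HPI (34.6%, all tested genes 22.2%). At 8 HPI 4 were higher and 1 lower (19.2%, all tested genes 7.68%). The inhibitors of mTORC1 Sesn2 and Ddit4 were higher at 8 HPI, by 0.68 (edgeR adjusted p = 4.35e-05) and 0.70 (adjusted p = 0.000375) on the log2 scale, and Fnip1, a partner of folliculin, at 16 HPI by 0.44 (adjusted p = 0.000198). Mtor itself, named after its values were seen, was lower at 8, 16 and 24 HPI (-0.23, -0.33 and -0.41, adjusted p = 0.0186, 0.00028 and 6.32e-05). Of 11 further receptors 4 were higher and 2 lower at 24 HPI (54.5%, all tested genes 15.0%). Fundc1, a mitochondrial receptor, was at 0.26 there (adjusted p = 0.013, lost without 24 HPI replicate 3 or control replicate 1 at 0.18 to 0.24, range over all alternatives 0.0042 to 0.274). Wdfy3, an adaptor for aggregates, was at -0.45 (adjusted p = 0.000137). Tollip, a ubiquitin-binding adaptor, was higher at 16 HPI (0.30, adjusted p = 0.000144). Of 15 fusion genes 2 were higher and 1 lower at 16 HPI (20%, all tested genes 22.2%). Vps18, a tethering subunit, was at 0.23 there (adjusted p = 0.012, lost without control replicate 3 at 0.0515, range 0.00403 to 0.23). Stx17, the SNARE of the autophagosome, was at 0.21 (adjusted p = 0.0466, lost in 5 of 6 single leave-outs, all but 16 HPI replicate 2, at 0.10 to 0.24).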

How the data were processed

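The deposited values were counts per gene, 1 table for each of 18 libraries, which the authors made and left without normalization. Per the study's methods, total RNA was sequenced as paired reads, trimmed with cutadapt, aligned to mm10 with STAR and counted on GENCODE genes with featureCounts; the submitters' processing notes name HTSeq, and each table ends in 5 summary entries named as that tool names them. Per the labels, ribosomal RNA was removed and cDNA made with a SMARTer kit. Reads in those 5 entries (25.2% to 33.2%) were left out, so reads shared by overlapping genes or several places are not in the values.

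Names, exon lengths and positions came from GENCODE vM21 (47224 of 47643 identifiers matched). The test took the 13771 genes above 1 CPM in 3 or more libraries and was run in R 4.3.3 with edgeR 4.0.16 (TMM, quasi-likelihood, 1 fit with terms for time point and replicate number, two-sided, Benjamini-Hochberg over all tested genes), called at an adjusted p under 0.05. Deviations from group means correlated in all 45 pairs of libraries with the same number (0.484 to 0.765, mean 0.619), so the numbers were taken to pair the samples. No pair of replicates of a group agreed within sampling noise (chi-square per degree of freedom 9.32 to 85.9). Alternatives were DESeq2 1.42.0 or its size factors, other filters, no block, 1 RUVs factor, only the compared groups and each library left out. On simulated counts for 16 HPI against control over 13771 genes, 79 of 100 genes changed 1.5-fold and 89 of 100 changed 2-fold were called, with 10 unchanged genes called beside them. Normalized CPM is CPM on TMM-scaled library sizes, and RPKM divides it by exon length. Intervals for a count of 0 (3 counts) cover counting error only. Python 3.11.15 was used for tables and plots. Read sharing was counted over 100-base windows of each member's longest transcript.

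The members and lists were chosen with earlier results of these data known. Named genes were a set list of 20 members and, in each role, up to 4 (in each further list up to 3) called genes with the largest change and the same direction in all 3 replicate numbers, and any called over 2-fold. Genes given with their motif were named by the motif search. Promoters came from RefSeq for 67 members; 16 had no entry.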

Additional observations from a re-analysis of the deposited data

Results flagged for a closer look

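In all, 9 changes between neighbouring time points passed edgeR's test of that step itself (adjusted p under 0.05), a difference between the effects at 2 time points. Between 3 and 8 HPI it was the fall of Atp6v0a2 (log2 fold change -0.31). Between 8 and 16 HPI it was the rise of Sqstm1 (0.25), Tfeb (0.74) and Atp6v0a2 (0.31) and the fall of Atp6ap1l (-0.62). Between 16 and 24 HPI it was the fall of Ctsc (-0.61), Atg14 (-0.42), Atp6v0e (-0.28) and Tfe3 (-0.24). Of these 9 steps only that of Sqstm1 was still called without the replicate block. With 3 libraries a group, no formal outlier test was run.

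Leaving out 1 library ended several of these calls. The step of Atp6v0a2 up to 16 HPI was lost without 16 HPI replicate 2 or 8 HPI replicate 1 or 3 (edgeR adjusted p 0.0532 to 0.0731, range over all alternatives 0.0115 to 0.167), and that of Atp6ap1l without 16 HPI replicate 1 or 8 HPI replicate 3 (0.0568 to 0.0936, range 9.82e-05 to 0.525). The step of Ctsc was lost without 16 HPI replicate 1 or 24 HPI replicate 1 or 3 (0.0693 to 0.125, range 2.28e-08 to 0.643), and that of Tfe3 without 24 HPI replicate 1 or 3 (0.0605 to 0.0656, range 0.00115 to 0.861). The step of Atg14 was lost without 16 HPI replicate 1 or 2 or 24 HPI replicate 1 or 3 (0.0611 to 0.118, range 0.00615 to 0.203), and that of Atp6v0e without 16 HPI replicate 1 or 2 or 24 HPI replicate 1 (0.0542 to 0.0659, range 0.012 to 0.425).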

How the results depend on the processing

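Of 460 refits of the called members, 272 kept the call, 188 lost it and none changed direction. Without the replicate block, that is with the pairing of the numbers ignored, the members called were 0 at 8 HPI, 1 at 16 HPI, 1 at 24 HPI, 0 between 3 and 8 HPI, 1 between 8 and 16 HPI, 0 between 16 and 24 HPI and 1 over all time points, with 1 RUVs factor in the block's place 2, 4, 5, 0, 1, 1 and 8, and without replicate 1 in every group 2, 2, 4, 0, 0, 0 and 5. DESeq2 called 2 at 1 HPI, 2 at 3 HPI and 0 between 3 and 8 HPI, no filter on low counts gave 1, 2 and 3 there, and only the compared groups gave 2 at 1 HPI and 0 at 8 HPI. Single leave-outs gave 0 to 7 at 8 HPI, 5 to 7 at 16 HPI, 2 to 7 at 24 HPI, 0 to 1 between 3 and 8 HPI, 1 to 6 between 8 and 16 HPI, 0 to 5 between 16 and 24 HPI and 10 to 17 over all time points. The cause of these shifts was not tested. Of the 33 calls of named members, 3 held in all 13 alternatives, all of Sqstm1, and 6 in every single leave-out. Depth limits the scarce genes, such as Ctso with 5 to 32 counts per library.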
